A study of Mus musculus with 6 samples.

Results

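Members of the DNA methylation and Polycomb machinery were followed in hematopoietic stem cells (HSCs) with and without *Rpl22*, which encodes an RNA-binding protein of the large ribosomal subunit. The 10 genes, *Dnmt1*, *Dnmt3a*, *Dnmt3b*, *Tet1*, *Tet2*, *Tet3*, *Asxl1*, *Ezh1*, *Ezh2* and *Bmi1*, were taken by symbol from a table of 34573 genes, and all 10 were found and had enough reads for a test. They were chosen by name as regulators of HSC function and myeloid leukemia. Of these, *Dnmt3a*, *Tet2*, *Asxl1* and *Ezh2* are the ones often mutated in myeloid malignancies, and the others are their paralogs or partners. Polyadenylated RNA was sequenced from HSCs of adult mouse bone marrow, sorted as lineage-negative, Kit+, Sca1+, CD48- and CD150+ cells. The 3 *Rpl22*-/- libraries came from mice with the gene ablated in the germline and so in every cell type. Another 3 libraries came from *Rpl22*+/+ mice. The mice carried no other allele or treatment that the labels name, and the labels do not say whether the 3 libraries of a genotype came from separate mice, so p-values measure the spread between these libraries, which may be technical.

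DNA methylation is written de novo by DNMT3A and DNMT3B and copied to the new strand after replication by DNMT1, while the TET enzymes oxidize 5-methylcytosine, the first step of its removal. Polycomb repressive complex 2 (PRC2) methylates a lysine of histone H3 through its catalytic subunit, either EZH2, which is most abundant in dividing cells, or EZH1, which persists in resting cells. BMI1 belongs to PRC1, which ubiquitinates histone H2A and is needed for HSC self-renewal, and ASXL1 activates the deubiquitinase BAP1, which takes that ubiquitin off again in the complex called PR-DUB.

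Counts on genes ran from 9321123 to 13385850 per library, with *Rpl22*+/+ replicate 3 the shallowest. For *Rpl22* itself the *Rpl22*-/- libraries held 449, 527 and 546 reads, compared with 6890, 7001 and 5031 in the *Rpl22*+/+ libraries, so every library matched its label. The sorted population showed the RNA of its HSC markers in every library, with a summed level of 10 such genes between 2680 and 2941 CPM (counts scaled to a common library size). Of these 10 genes, 1 passed edgeR's quasi-likelihood test, *Fgd5*, with a log2 fold change of -0.41 (adjusted p = 0.0308). *Gfi1b* had an estimate of 0.42 in the other direction (adjusted p = 0.0675 by edgeR and 0.0375 by DESeq2). By edgeR, 2 of the 10 were higher in *Rpl22*-/- HSCs and 3 lower at an unadjusted p below 0.05. For all genes tested, the shares were 22.3% at that level and 5.57% at an adjusted p below 0.05. The defining T cell genes *Cd3e*, *Cd3d* and *Cd3g* and B cell genes *Cd79a*, *Ms4a1* and *Pax5* were at or near 0, while *Lck* and *Cd79b* had enough reads for a test, without a call. Erythroid genes summed to between 27.2 and 32.7 CPM and monocyte genes to between 188.5 and 245 CPM, with 0 called by edgeR or DESeq2 (0 and 1 at an unadjusted p below 0.05 by edgeR). Megakaryocyte genes summed to between 972 and 1236 CPM in *Rpl22*-/- libraries and between 701 and 923 CPM in *Rpl22*+/+ libraries. EdgeR called 4 of 6 higher in *Rpl22*-/- HSCs (*Itga2b*, *Gp1bb*, *Gp9* and *Pf4*), and all 6 were higher at an unadjusted p below 0.05. DESeq2 called 3 of 6, without *Pf4* (adjusted p = 0.204), whose genotypes overlapped. Neutrophil genes summed to 211 CPM in *Rpl22*-/- replicate 2 and to between 66.1 and 106 CPM in the other 5 libraries. Of these 8 genes, 1, *Camp*, was called higher in *Rpl22*-/- HSCs. At an unadjusted p below 0.05, 5 of the 8 were higher by edgeR and 2 by DESeq2. The median log2 fold change of the list was 1.53. The part of these differences in the values that follow was not tested. In bulk RNA, fewer cells of a type and less RNA per cell cannot be told apart.

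None of the 10 genes differed between the genotypes at an adjusted p below 0.05 in edgeR's quasi-likelihood test, adjusted by the Benjamini-Hochberg method over the 14004 genes tested. Over all genes tested, 780 passed, or 5.57%, so a count of 0 in 10 is close to the background. DESeq2 and limma-voom also called 0 of the 10. At an unadjusted p below 0.05, 1 of the 10 passed by edgeR and 1 by DESeq2, in both cases *Dnmt1*, against 22.3% of all genes tested by edgeR. In 5 of the 10 genes the estimate was above 0 and in 5 below, with a median log2 fold change (*Rpl22*-/- against *Rpl22*+/+) of -0.04, beside a median of -0.01 for all genes tested. The median size of the change, sign left out, was 0.09 for the 10 genes, 0.12 for the 5230 genes expressed at or above the lowest of the 10, and 0.16 for all genes tested. The share called among those 5230 genes was 7.53%. The 95% intervals of all 10 genes lay between -0.37 and 0.45, so a change beyond 0.5 on the log2 scale in either direction was outside the interval of each.

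**Figure D1:**
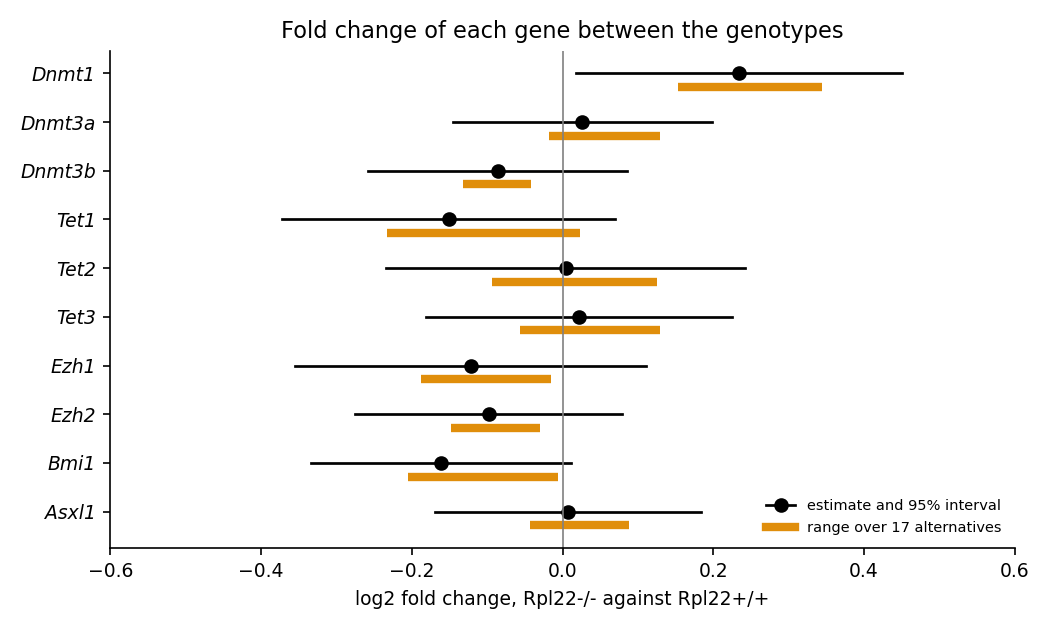
Log2 fold change of each gene in *Rpl22*-/- against *Rpl22*+/+ HSCs (x axis), with the 95% interval of the edgeR fit as a thin line and the range over 17 alternative ways of processing, which include leaving out single libraries, as a thick bar. The interval of *Dnmt1* alone excludes 0, and 5 of the 10 thick bars cross it.

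The levels of the 10 genes spanned a wide range and were ordered alike in both genotypes. Levels were compared between genes as CPM per kb of the longest coding transcript, over all 6 libraries. *Dnmt1* was highest, at 95.9 ± 12.4 CPM per kb (SD, n = 6), followed by *Ezh2* at 62.2 ± 3.62 and *Dnmt3b* at 29.2 ± 1.43. In the middle were *Asxl1* (24.0 ± 1.09), *Bmi1* (21.01 ± 1.34), *Dnmt3a* (18.4 ± 0.647), *Ezh1* (15.8 ± 1.86) and *Tet3* (14.8 ± 1.24). *Tet1* and *Tet2* were lowest, at 7.32 ± 0.833 and 5.35 ± 0.543 CPM per kb. Neighbours in this order whose ranges over the 6 libraries overlapped were *Asxl1* and *Bmi1*, *Dnmt3a* and *Ezh1*, *Ezh1* and *Tet3*, and *Tet1* and *Tet2*, although *Tet1* was above *Tet2* in each of the 6 libraries. With levels per kb of all annotated exons instead, *Ezh1* and *Tet3* changed places and the rest of the order was the same. The wide lead of *Ezh2* depended on the length used. Per kb of all exons its mean was 25.9, close to 24.7 for *Dnmt3b* and 22.5 for *Asxl1*. The reads behind one value ranged from 505, for *Tet2* in *Rpl22*-/- replicate 2, to 8348, for *Dnmt1* in *Rpl22*-/- replicate 3.

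**Figure D2:**
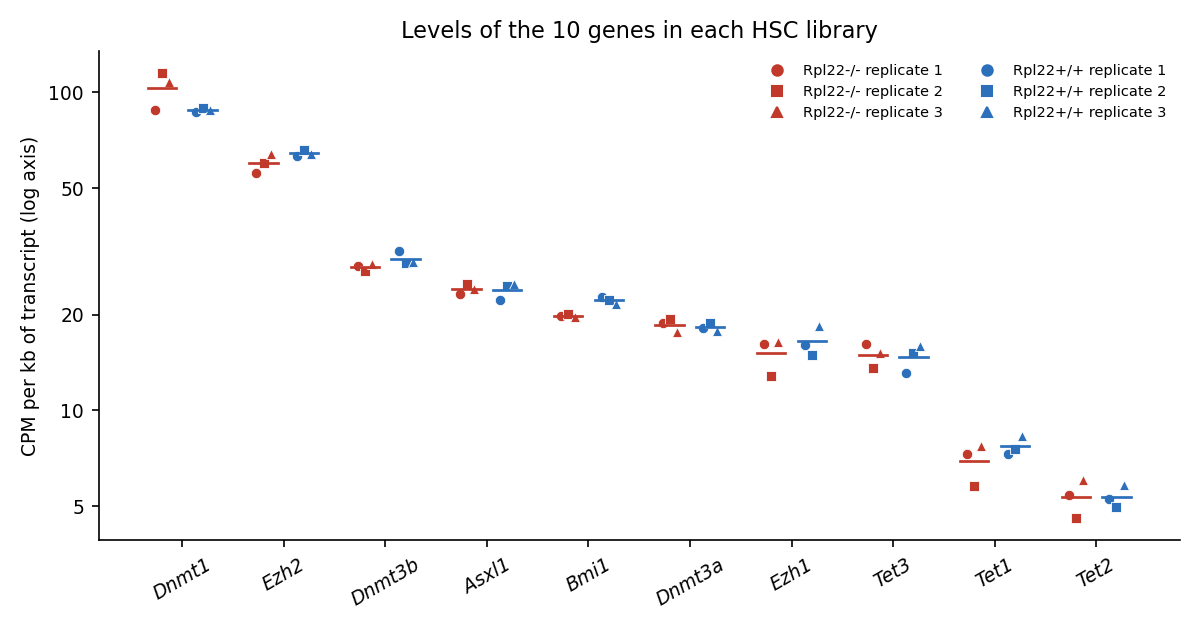
CPM per kb of the longest coding transcript (y axis, log scale) for each of the 10 genes in each library, red for *Rpl22*-/- and blue for *Rpl22*+/+, with marker shape giving the replicate and a bar the mean of 3 libraries. By this length *Dnmt1* and *Ezh2* stand above the others, *Tet1* and *Tet2* below, and within each gene the genotypes lie close together.

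*Dnmt1*, the maintenance methyltransferase, had the largest estimate of the 10. Its gene spans 20907209 to 20959888 on the reverse strand of chromosome 9 (GRCm38 positions throughout). Its level in *Rpl22*-/- replicates 1 to 3 was 515, 676 and 634 CPM, compared with 508, 526 and 518 CPM in *Rpl22*+/+ replicates 1 to 3. *Rpl22*-/- replicates 2 and 3 were above all *Rpl22*+/+ libraries, and *Rpl22*-/- replicate 1 lay among them, so the genotypes overlapped. The *Rpl22*-/- mean of 608 ± 83.2 CPM (SD, n = 3) compared with 517 ± 8.88 CPM (SD, n = 3) for *Rpl22*+/+. This gave a log2 fold change of 0.23 (standard error 0.10, 95% interval 0.02 to 0.45), with an adjusted p of 0.19 from edgeR's quasi-likelihood test. The exact two-sided permutation test of the 6 log2 CPM values gave p = 0.3, and 0.1 is the smallest p that 3 libraries against 3 allow. Over 17 alternatives the estimate stayed above 0, from 0.15 to 0.34, with adjusted p from 0.018 to 0.449, and it passed the threshold in 1 of them, without *Rpl22*-/- replicate 1 (0.34, adjusted p = 0.018). Without *Rpl22*-/- replicate 2, the library with the highest level, it was 0.15.

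The de novo methyltransferases had estimates near 0, and neither passed the test. *Dnmt3a* (chromosome 12, 3806007 to 3914443) was at 182, 187 and 171 CPM in the *Rpl22*-/- libraries and at 176, 182 and 173 CPM in the *Rpl22*+/+ libraries. These values interleaved, and the log2 fold change was 0.03 (95% interval -0.15 to 0.20, adjusted p = 0.887, edgeR). *Dnmt3b* (chromosome 2, 153649450 to 153687730) was at 123, 119 and 125 CPM in *Rpl22*-/- HSCs and at 137, 125.5 and 126.5 CPM in *Rpl22*+/+ HSCs. No *Rpl22*-/- library reached the lowest *Rpl22*+/+ library, but the nearest pair were less than 1 CPM apart, and the log2 fold change was -0.09 (95% interval -0.26 to 0.09, adjusted p = 0.575, edgeR). *Dnmt3b* and *Bmi1* were the 2 of the 10 genes whose genotypes did not overlap, against 26.9% of all genes tested.

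The TET dioxygenases showed a spread between libraries that was as wide as any difference between genotypes. *Tet1* (chromosome 10, 62804570 to 62908996) was at 105, 83.4 and 111 CPM in the *Rpl22*-/- libraries and 105, 108 and 119 CPM in the *Rpl22*+/+ libraries, a log2 fold change of -0.15 (95% interval -0.37 to 0.07, adjusted p = 0.421, edgeR). *Tet2* (chromosome 3, 133463679 to 133545139) was at 49.8, 42.0 and 55.6 CPM in the *Rpl22*-/- libraries and 48.5, 45.5 and 53.4 CPM in the *Rpl22*+/+ libraries, a log2 fold change of 0.00 (95% interval -0.23 to 0.24, adjusted p = 0.988, edgeR). *Tet3* (chromosome 6, 83362373 to 83459084) was at 176, 148.5 and 165 CPM against 143, 165.5 and 174 CPM, a log2 fold change of 0.02 (95% interval -0.18 to 0.23, adjusted p = 0.92, edgeR). In all 3 genes *Rpl22*-/- replicate 2 was the lowest library of its genotype. The signs of *Tet2* and *Tet3* turned under 6 and 4 of the 17 alternatives, among them scaling by library size alone, and *Tet1* turned to 0.02 in 1, with length and GC trends removed in a fit that included the replicate number.

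Within a library, *Tet3* supplied 52.4% to 56.7% of the summed TET level per kb in *Rpl22*-/- HSCs and 51.0% to 54.8% in *Rpl22*+/+ HSCs. The share of *Tet1* was 25.4 ± 1.25% (SD, n = 3) against 27.8 ± 0.598% (SD, n = 3), and its range did not overlap between the genotypes. Taken as a ratio, *Tet1* to *Tet2* was 1.34, 1.27 and 1.27 across *Rpl22*-/- replicates 1 to 3, compared with 1.38, 1.52 and 1.43 across *Rpl22*+/+ replicates 1 to 3. This was the 1 ratio of 6 computed between paralogs, or between *Dnmt1* and *Dnmt3a*, in which the genotypes did not overlap. The exact two-sided permutation test of 3 libraries against 3 cannot go below p = 0.1. For single genes, the CPM of the genotypes did not overlap in 26.9% of all genes tested. No such share was computed for ratios or TET shares.

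The catalytic subunits of PRC2 were each slightly lower in the mean of *Rpl22*-/- HSCs, and neither passed the test. *Ezh2* (chromosome 6, 47530139 to 47595341) had levels of 156, 167 and 179 CPM in *Rpl22*-/- replicates 1 to 3, compared with 176, 183.5 and 178 CPM in *Rpl22*+/+ replicates 1 to 3. *Rpl22*-/- replicates 1 and 2 were below the *Rpl22*+/+ libraries and *Rpl22*-/- replicate 3 was among them, with a log2 fold change of -0.10 (95% interval -0.27 to 0.08, adjusted p = 0.529, edgeR). *Ezh1* (chromosome 11, 101191115 to 101226463) was at 67.8, 53.9 and 69.2 CPM in the *Rpl22*-/- libraries and at 67.5, 63.0 and 77.7 CPM in the *Rpl22*+/+ libraries, a log2 fold change of -0.12 (95% interval -0.35 to 0.11, adjusted p = 0.554, edgeR). The ratio of *Ezh2* to *Ezh1*, per kb of the longest coding transcript, was 3.47, 4.68 and 3.91 across *Rpl22*-/- replicates 1 to 3. Across *Rpl22*+/+ replicates 1 to 3 the ratio was 3.93, 4.40 and 3.46. Its size depends on the length used, which is the same for every library. Both the lowest values, 3.47 and 3.46, and the highest, 4.68 and 4.40, were found in each genotype, so the balance of the paralogs differed between libraries of a genotype more than between the genotypes.

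**Figure D3:**
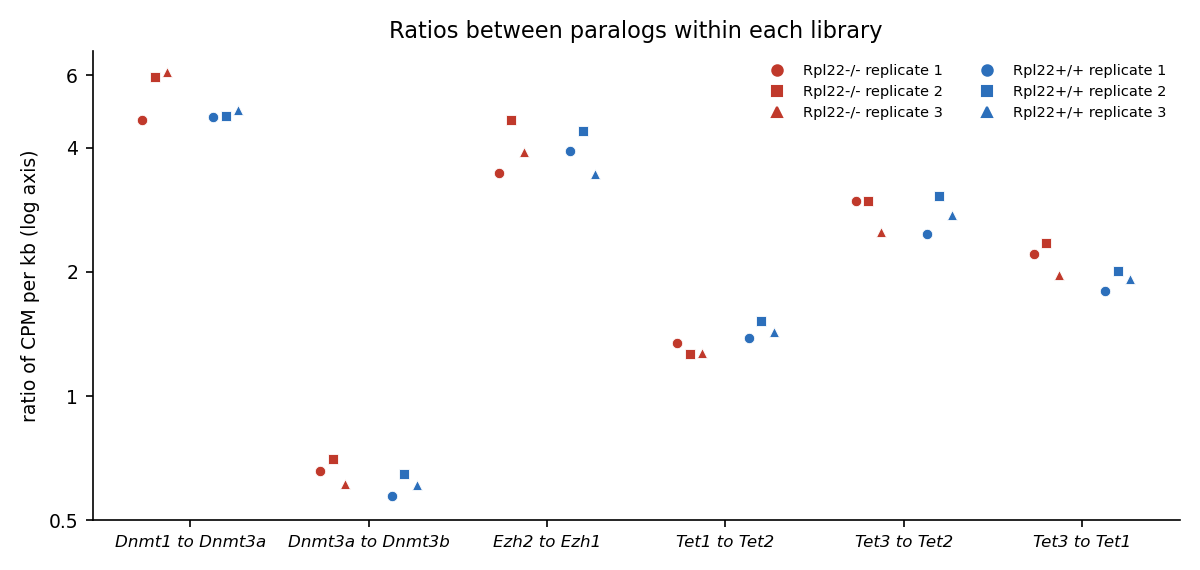
Ratio of CPM per kb between pairs of genes within each library (y axis, log scale), red for *Rpl22*-/- and blue for *Rpl22*+/+, with marker shape giving the replicate. The genotypes overlap in each ratio except *Tet1* to *Tet2*, where the *Rpl22*-/- values lie between 1.27 and 1.34 and the *Rpl22*+/+ values between 1.38 and 1.52.

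*Bmi1* and *Asxl1* act on the same histone mark from opposite sides. *Bmi1* (chromosome 2, 18677018 to 18686629) was at 71.0, 72.4 and 70.5 CPM in the *Rpl22*-/- libraries and at 81.7, 79.7 and 77.7 CPM in the *Rpl22*+/+ libraries. Every *Rpl22*-/- library was below every *Rpl22*+/+ library, with the narrowest spread of the 10 genes in *Rpl22*-/- HSCs, 71.3 ± 0.993 CPM (SD, n = 3) against 79.7 ± 2.01 CPM (SD, n = 3). This was a log2 fold change of -0.16 (standard error 0.08, 95% interval -0.33 to 0.01), with an adjusted p of 0.257 from edgeR's quasi-likelihood test and an exact two-sided permutation p of 0.1, the smallest possible. The estimate stayed below 0 in all 17 alternatives but ranged from -0.21, with scaling by library size alone, to -0.01, with each library's trend on GC content removed, and the transcript of *Bmi1* has the lowest GC content of the 10, 40.2%, whose part in the estimate was not tested further. A processed copy, *Gm5946*, matches 2658 bases of the *Bmi1* transcript at 97.0% identity and had 0 reads in the 6 libraries, and how reads of the shared stretch were counted was not tested. *Asxl1* (chromosome 2, 153345829 to 153404007) was at 162, 174 and 168 CPM in the *Rpl22*-/- libraries and at 155, 171 and 175 CPM in the *Rpl22*+/+ libraries, a log2 fold change of 0.01 (95% interval -0.17 to 0.18, adjusted p = 0.973, edgeR). The sign of *Asxl1* turned in 4 alternatives and that of *Dnmt3a* in 3. *Asxl1* shares 197 exonic bases with the antisense gene *2500004C02Rik*, which had 186 to 278 reads per library, and without a stated strand setting the reads of the 2 genes cannot be told apart there. Likewise *Dnmt3a*, *Tet2* and *Ezh2* share 133, 43 and 174 exonic bases with genes annotated on the other strand.

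Libraries of one genotype differed among themselves in several of the 10 genes. Proliferation genes, a list of 17 replication and mitosis genes, summed to 3983, 5426 and 5174 CPM across *Rpl22*-/- replicates 1 to 3, compared with 4552, 4647 and 4492 CPM across *Rpl22*+/+ replicates 1 to 3. *Rpl22*-/- replicate 1 was the lowest of the 6 libraries in this sum and replicate 2 the highest, and none of the 17 genes was called (1 at an unadjusted p below 0.05 by edgeR, and 1 by DESeq2). In the *Rpl22*-/- libraries *Dnmt1* and *Asxl1* followed the same order, with replicate 1 lowest and replicate 2 highest. *Ezh2* was likewise lowest in replicate 1 but highest in replicate 3. *Ezh1*, *Tet1*, *Tet2*, *Tet3* and *Dnmt3b* were lowest in replicate 2, while *Dnmt1*, *Dnmt3a*, *Asxl1* and *Bmi1* were highest there. Replicate 2 was also the library with 1218 reads of the neutrophil granule gene *Mpo*, against 178 and 225 in the other *Rpl22*-/- libraries and 19 to 197 in the *Rpl22*+/+ libraries. The part of proliferation or of other cell types in the spread of the 10 genes was not tested. The coefficient of variation (SD over mean) was higher in *Rpl22*-/- than in *Rpl22*+/+ libraries for 6 of the 10 genes, and for 66.1% of the 5230 genes expressed at or above the lowest of them.

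**Figure D4:**
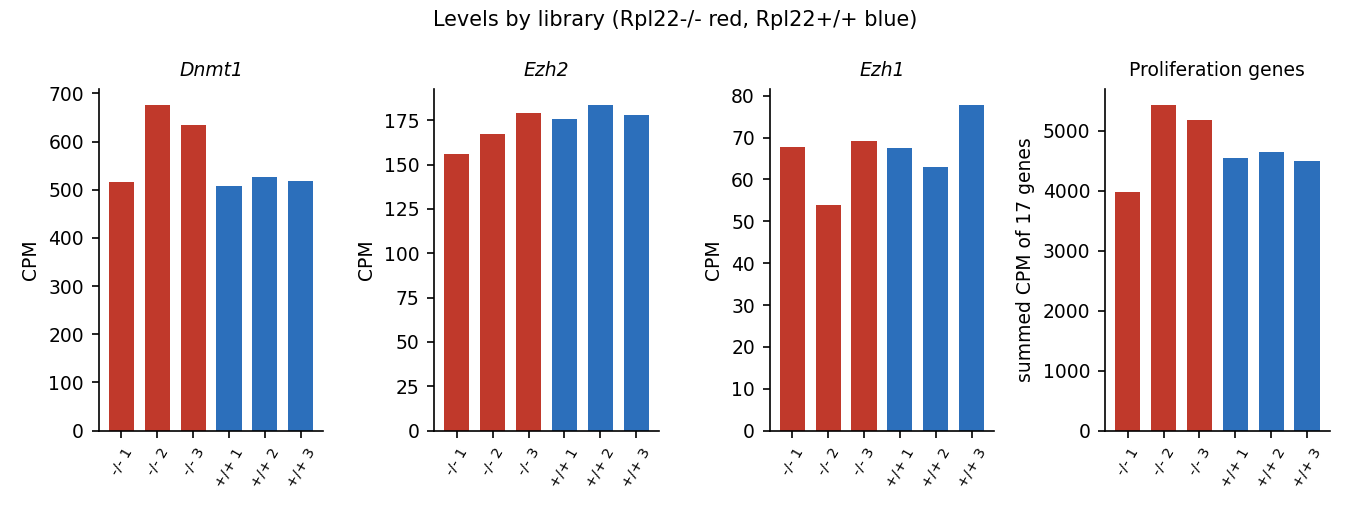
CPM of *Dnmt1*, *Ezh2* and *Ezh1* and the summed CPM of 17 proliferation genes (y axes, from 0) in each library, *Rpl22*-/- in red and *Rpl22*+/+ in blue. In *Rpl22*-/- replicate 1 the bars of *Dnmt1*, *Ezh2* and the proliferation genes are the lowest of their genotype, and in replicate 2 *Dnmt1* and the proliferation genes are highest and *Ezh1* is lowest.

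Promoters of the 10 genes were searched for a binding motif of E2F factors, the transcription factors that drive replication genes. The motif was searched only as TTTGGCGC or TTTCGCGC on either strand, and not in other forms. The windows ran from 250 bases before to 50 bases after each transcription start (RefSeq, GRCm38.p6). The motif was chosen after these promoters had been read, so the count in the 10 genes cannot be weighed against the other shares. A match was found in *Dnmt1* and *Ezh2*, 2 of the 10 genes, and in 5 of the 14 proliferation genes with a window. It was found in 1.84% of the 9347 tested genes with a window and in 0.813% of all 32851 windows. The sites are shown on the strand of the gene, with the motif or its reverse complement in capitals. In *Ezh2* it begins 4 bases into the transcript. Of the 3 starts of *Dnmt1*, the most downstream has a match 219 bases before it and another beginning 34 bases into the transcript. A match is a description of the letters and not evidence of binding. By CpG dinucleotides, the methylation target itself, the richest window of each of the 10 genes held 13 to 57, above the median of 22 for the richest windows of tested genes in 7 of the 10 and at or below it in *Asxl1*, *Tet1* and *Tet3*.
Ezh2, chr6:47595009-47595038, reverse strand: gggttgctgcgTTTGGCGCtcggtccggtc
Dnmt1, chr9:20952824-20952853, reverse strand: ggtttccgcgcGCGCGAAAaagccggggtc
Dnmt1, chr9:20952574-20952601, reverse strand: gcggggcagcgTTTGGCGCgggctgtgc

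The other genes of the same pathways were counted without the 10 genes, beside the shares of all genes tested, 5.57% called and 22.3% at an unadjusted p below 0.05. None of the 15 other DNA methylation genes tested passed edgeR's threshold, and DESeq2 called 2. At an unadjusted p below 0.05 by edgeR were 7 of the 15, or 46.7%, 2 of them higher and 5 lower. Their median log2 fold change was -0.04, and it ranged from -0.09 to 0.02 over the alternatives. The smallest p-values were those of *Mbd2*, a reader of methylated DNA, at 0.33 (adjusted p = 0.0535), and *Uhrf2*, a paralog of the DNMT1 partner UHRF1, at -0.27 (adjusted p = 0.0651). The largest estimate of the list, 1.09 for the DNMT3 cofactor *Dnmt3l*, was noted after the values were seen and rests on means of 1.12 CPM and 0.556 CPM (adjusted p = 0.322). *Mbd2* passed the threshold in 5 alternatives, such as without *Rpl22*-/- replicate 1 (adjusted p = 0.00545), and its adjusted p was at most 0.192 over the 17.

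PRC2 genes lay somewhat below the middle of all genes. Of the 10 tested besides *Ezh1* and *Ezh2*, 6 had estimates below 0 and 4 above, with a median of -0.14 against -0.01 for all genes tested, and 0 were called by edgeR (3 higher and 2 lower at an unadjusted p below 0.05, and 1 called by DESeq2). *Suz12*, a core subunit without which the complex is not stable, was at -0.27 (adjusted p = 0.0662), and *Jarid2*, an accessory subunit that aids recruitment, was at 0.25 (adjusted p = 0.125). The median of these 10 stayed below 0 in each of the 17 alternatives, between -0.18 with scaling by library size alone and -0.04 with the GC trend removed. Of 21 PRC1 genes besides *Bmi1* 0 were called by edgeR (1 higher and 3 lower at an unadjusted p below 0.05, or 19.05%, and 1 called by DESeq2), with a median of 0.04 that ranged from -0.0043 to 0.06 over the alternatives. *Bcor*, a subunit of a variant PRC1, was at 0.27 (adjusted p = 0.0754), and *Pcgf5*, a paralog of *Bmi1*, was at -0.31 (adjusted p = 0.0927). Of 9 PR-DUB genes besides *Asxl1* 0 were called by edgeR (3 higher at an unadjusted p below 0.05, or 33.3%, and 2 called by DESeq2). Their median of 0.06 turned to -0.02 without *Rpl22*+/+ replicate 3 and was 0.12 with the length trend removed. *Mbd6*, which binds the complex, was at 0.35 (adjusted p = 0.0581), and the cofactor *Hcfc1* was at 0.27 (adjusted p = 0.0768).

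Among 15 other chromatin genes of myeloid disease, 1 was called lower in *Rpl22*-/- HSCs, close to the 5.57% called over all genes tested. This was *Phf6*, a plant homeodomain protein mutated in T cell and myeloid leukemias, with 94.7 CPM in the mean of *Rpl22*-/- HSCs and 119 CPM in that of *Rpl22*+/+ HSCs, a log2 fold change of -0.33 (adjusted p = 0.0299, edgeR's quasi-likelihood test), and no overlap between the genotypes. The call was lost in 8 of 17 alternatives, namely without any one of 5 of the 6 libraries, with the trend on GC content removed (-0.15, adjusted p = 0.326), with that on length removed (-0.29, adjusted p = 0.0603), and with both removed and a replicate term (-0.14, adjusted p = 0.376). The cohesin gene *Stag2* was at -0.24 (adjusted p = 0.102). Of the 15, 3 were higher and 2 lower at an unadjusted p below 0.05 by edgeR, or 33.3%, against 22.3% of all genes tested. The median of the list was 0.04, and over the alternatives it ranged from -0.0018, with library size alone, to 0.13, with the length trend removed. Among cell cycle inhibitors that Polycomb represses, *Cdkn2a* and *Cdkn2b* had too few reads for a test, with means at or below 0.052 CPM, and *Cdkn2c* was at 0.26 (adjusted p = 0.439). The proliferation genes with the smallest p-values were *Birc5*, at 0.30 (adjusted p = 0.119), and *Mki67*, at 0.30 (adjusted p = 0.236).

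**Figure D5:**
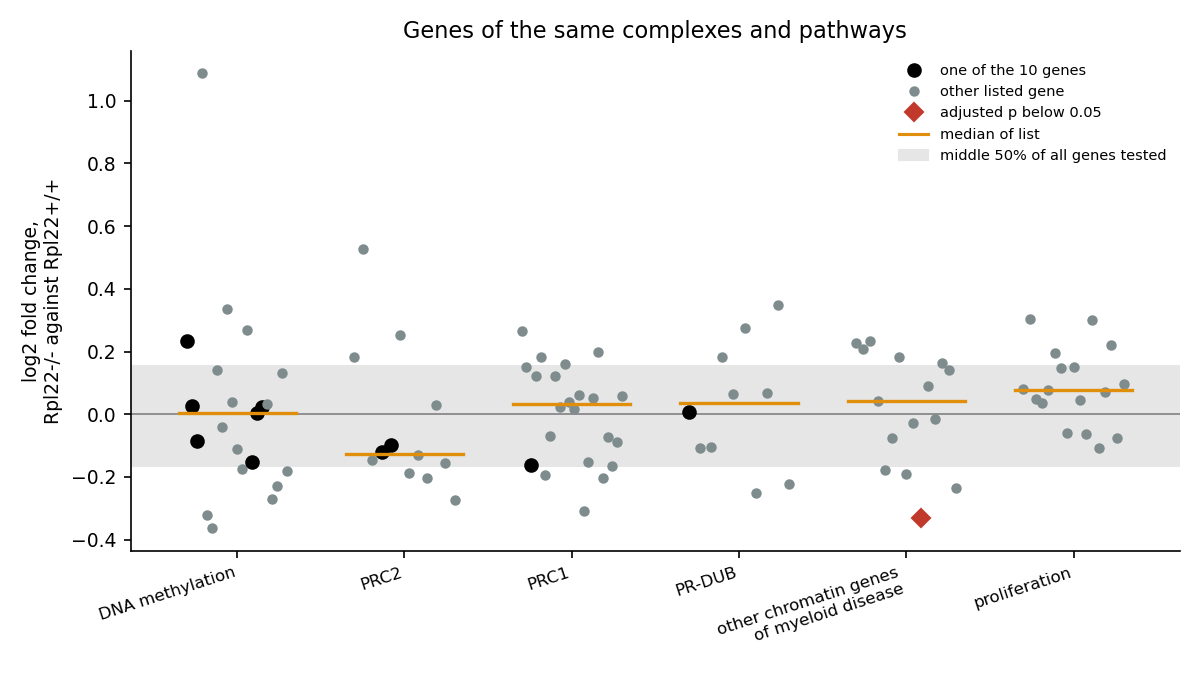
Log2 fold change in *Rpl22*-/- against *Rpl22*+/+ HSCs (y axis) of each gene tested in 6 lists, with the 10 genes in black, other genes in grey, the gene with an adjusted p below 0.05 as a red diamond, the median of each list as a line and the middle 50% of all genes tested as a band. One gene, *Phf6*, is past the threshold, and *Dnmt1* is the one black point outside the band.

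Transcript length moved with the estimates across all genes. The 10 genes have long transcripts, from 2787 to 14369 bases, and 9 are longer than the median of 2967 bases for tested genes. With tested genes cut by length into 5 bins of equal size, the median log2 fold change went from 0.09 in the shortest bin to -0.08 in the longest, which holds 6 of the 10. With each library's trend on length removed, the median of the 10 moved from -0.04 to 0.03 and none of the 10 was called. In that fit *Dnmt1* rose from 0.23 to 0.30 (adjusted p = 0.0967, edgeR's quasi-likelihood test). This was the top of its range over the processing alternatives, 0.18 to 0.30.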

How the data were processed

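HSC RNA from 3 *Rpl22*-/- and 3 *Rpl22*+/+ samples was sequenced with a polyA kit. The authors aligned reads to mm10 with TopHat2 (2.1.1, per the labels' processing notes) and deposited raw HTSeq counts per gene. The strand setting and annotation are not given in the sources used here. HTSeq's rows of unassigned reads, 58.6% to 60.9% of each library, were left out.

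Counts were compared with edgeR 4.0.16 (TMM factors, filterByExpr with a minimum count of 10, quasi-likelihood test of genotype, Benjamini-Hochberg over 14004 genes). Intervals are the estimate ± the t quantile times its standard error. CPM used TMM-scaled library sizes. With 9321123 to 13385850 counts per library, precision is set by 3 libraries per genotype. Positions and lengths came from GENCODE for GRCm38 (30941 of 34573 symbols matched), and copies from BLAST 2.17.0. Alternatives were DESeq2 1.42.0, limma-voom (limma 3.58.1), scaling by RLE, by upper quartiles or by library size alone, no filter, at least 10 counts in every sample, removal of length or GC trends, a replicate term, and each library left out. The fitting code, for edgeR and some of the alternatives, was also tested on counts simulated with the real genes' means and dispersions.

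The 10 genes and the lists were chosen with earlier results of these data known. Named genes are the 10, every called gene of each companion list (pathways and complexes) and, where fewer than 2 passed, those with the 2 smallest p-values. Cell type markers are named outside this rule.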

Additional observations from a re-analysis of the deposited data

How the results depend on the processing

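Of 17 alternatives, 16 called 0 of the 10 genes. Leaving out *Rpl22*-/- replicate 1 called 1, *Dnmt1*. Over all genes, 780 calls became 1720 without that library and 127 without *Rpl22*-/- replicate 3, and 1422 with no filter and 486 with the GC trend removed. The share of calls higher in *Rpl22*-/- HSCs, 58.9%, was 43.4% with library size alone and 68.9% with the GC trend removed. The cause of these shifts was not tested. With 3 libraries per genotype, the exact permutation test cannot reach 0.05, and the 95% intervals of the 10 genes reached a median of 0.19 on the log2 scale to either side.

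The counts here are of whole lists, the 10 genes included. DNA methylation calls, 0 in the report, were 1 with upper-quartile factors, library size alone or the replicate block, 2 with DESeq2 or no filter, and 0 to 4 with a library left out. PRC2 calls, also 0, were 1 with library size alone or DESeq2 and 2 with length and GC trends removed with the replicate block. PRC1 calls, also 0, were 1 with DESeq2 or the length trend removed, and 0 to 1 with a library left out. PR-DUB calls, also 0, were 2 with DESeq2 or the length trend removed, 1 with no filter or the replicate block, and 0 to 1 with a library left out. Among the other chromatin genes the count of 1, *Phf6*, was 2 with the length trend removed, where *Phf6* was not called and *Cux1* and *Dot1l* were, 1 with both trends removed and the replicate block (*Cux1* in place of *Phf6*), 0 with the GC trend removed, and 0 to 4 with a library left out. Proliferation calls, 0 in the report, were 2 with no filter and 0 to 3 with a library left out. In each range the highest count came without *Rpl22*-/- replicate 1, shared in PR-DUB with *Rpl22*-/- replicate 2.

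The median of the 10 genes, -0.04, was -0.084 with library size alone, 0.028 with the length trend removed, 0.040 with length and GC trends removed with the replicate block, and -0.097 to -0.014 with a library left out. Signs turned for genes with estimates near 0. With library size alone *Dnmt3a* was -0.018, *Tet2* -0.040, *Tet3* -0.021 and *Asxl1* -0.039, and with the GC trend removed *Dnmt3a* was -0.0056, *Tet3* -0.026 and *Asxl1* -0.022. With length and GC trends removed with the replicate block, *Tet1* was 0.022 and *Stag2* 0.0076. With a library left out, *Dnmt3a* ranged from -0.0023 to 0.063, *Tet2* from -0.094 to 0.10, *Tet3* from -0.057 to 0.086, *Asxl1* from -0.043 to 0.039 and *Cdkn2c* from -0.0057 to 0.46.

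Replicate numbers appear in both genotypes, but the labels do not say that they pair samples. Same-numbered libraries had correlations of their deviations from the genotype means of -0.103, 0.0549 and 0.0448. Different-numbered libraries had values from -0.171 to 0.132. Deviations from a mean of 3 libraries depend on each other, so these values cannot decide whether the numbers pair samples. The replicate block gave 904 calls over all genes, turned *Tet2* to -0.0046 and called none of the 10.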
